A study of Mus musculus with 6 samples.

Results

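The 36 genes described here encode proteins that copy DNA in S phase, from the loading of the helicase at origins to the supply of nucleotides and histones, together with E2F1 and E2F8, transcription factors of this phase. They were chosen by name, and every probe set annotated with exactly 1 gene symbol, that of a member, was taken from the deposited array table. This gave 82 of the 45101 probe sets. Of these, 63 probe sets of 34 genes passed the filter on dim signals, which left out the lower 40% of probe sets by their mean over all arrays. The gene symbols were chosen with earlier results of these data known.

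RNA was taken from whole livers of 6 male mice aged 3 weeks, 1 array for each mouse. The 3 controls were Srf loxP/+ AlfpCre, with 1 floxed and 1 normal Srf allele, and the 3 mutants were Srf loxP/loxP AlfpCre, with both alleles floxed. All 6 mice thus carried at least 1 floxed Srf allele and the same Cre transgene, and no mouse without Cre was measured. AlfpCre is driven by regulatory sequences of the albumin and alpha-fetoprotein genes, so Cre is made in hepatocytes and their fetal precursors. Whole-liver RNA also holds that of other cells, and in which cells Srf was recombined was not measured here. The comparison asks how replication transcripts differ in liver when both copies of this serum-responsive transcription factor are targeted.

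In a cycling cell, the origin recognition complex, CDC6 and CDT1 load a ring of MCM2 to MCM7 onto each origin in G1 phase, and geminin blocks CDT1 once S phase has begun. CDC45 and the GINS complex then join the ring to form the active helicase, DNA polymerase alpha and its primase start each strand, and the clamp PCNA holds the main polymerases on the template. Most of these genes are targets of E2F factors and are transcribed in late G1 and S phase. Hepatocytes divide rapidly in the growing liver of a young mouse and leave the cell cycle in the adult.

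No member passed the test in this comparison. In the limma fit over all 27022 probe sets kept, 0 of the 63 member probe sets had an adjusted p under 0.05, the threshold used throughout, against 0.074% of all probe sets. By gene, 0.0837% of the 13144 genes kept were called lower in mutants. That background share is so small that a count of 0 among 34 genes says little by itself, and an adjusted p above the threshold does not show that a gene did not differ. By sign, 32 of the 34 kept member genes (94.1%) had a negative difference between mutant and control, against 45.9% of all genes. At an unadjusted p under 0.05, 18 (52.9%) were lower and 0 higher, against 7.01% of all genes lower and 7.36% higher. In 15 genes (44.1%) the 3 mutant arrays all lay below the 3 controls, against 10.8% of all genes, and in 0 genes did they all lie above them, against 14.1%. The median difference was -0.99 on the log2 scale over the 34 genes and 0.06 over all genes. These shares and medians describe the members that passed the filter, and are not a test of the list. Gins2 and Pole, counted among the 15 and the 18, had mutant means of 1.52 and 1.59. These lie under the filter's cutoff of 2.10, so both genes passed it through their controls. With group means near background set to the background estimate, the median was -0.93 over the 34 genes and 0.13 over all genes. In whole-liver RNA, fewer cells of a type and less RNA in each cell cannot be told apart.

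**Figure D1:**
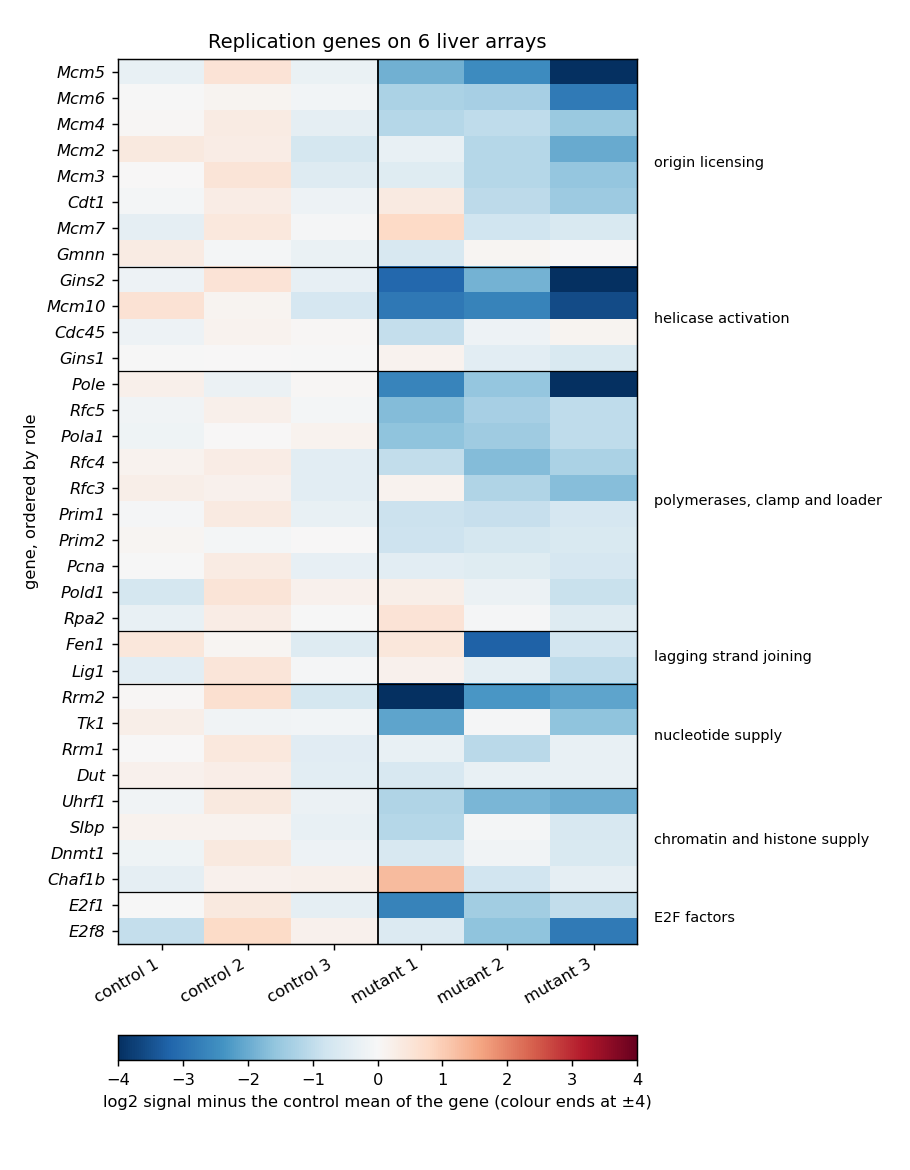
Log2 signal of 34 replication genes (rows, grouped by role) on the 6 arrays (columns), shown as the difference from the control mean of the gene, with blue for lower and red for higher, and with colours that end at a difference of 4 either way. The mutant columns are mostly blue, with the strongest blue in Mcm5, Mcm10, Gins2, Pole and Rrm2, while Mcm7, Cdt1, Gins1, Rpa2, Chaf1b and Fen1 are highest on mutant 1.

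The arrays did not shift alike. Signals are log2 of the intensity after each array was scaled to a common trimmed mean. Relative to the control means, the median shift over the 34 genes lay between -0.25 and 0.29 on the 3 control arrays. It was -0.75 on mutant 1, -1.06 on mutant 2 and -1.02 on mutant 3, each beyond the range of the controls. For all genes the same medians were 0.07, 0.07 and 0.14 on the mutant arrays. A mutant array lay below the lowest control for 21 of the 34 genes on mutant 1, for 26 on mutant 2 and for 29 on mutant 3, against 38.4%, 26.9% and 29% of all genes. Of the kept members, 0 had no such mutant array, against 44.8% of all genes. Control 2 was the highest of the 6 arrays for 20 of the members, and mutant 3 the lowest for 17.

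RNA quality and other cell types moved with the groups as follows. The 3′ to 5′ signal ratio of the control probe sets for Actb, Gapdh and Pcx, as a mean on the log2 scale, ran from 0.781 to 1.22 over the controls. It was 2.18 on mutant 1, 1.18 on mutant 2 and 1.57 on mutant 3, and the groups overlapped (two-sided exact permutation p = 0.2). For Gapdh alone the ratio, here on the linear scale, was higher on all mutants, at 0.773 to 1.006, than on the controls, at 0.679 to 0.756. The exact permutation test of its log2 gave p = 0.1, the smallest that 3 against 3 allows, and for Actb and Pcx p = 0.2. With the mean log2 ratio over Actb, Gapdh and Pcx as a covariate, 17 members were lower at an unadjusted p under 0.05. Of all genes, 3.04% were, and the median over the members was -1.06. The liver label was borne out by hepatocyte markers, of which 11 of 14 were matched and all 11 lay above background in both groups. Albumin (Alb) gave a control mean of 12.66 and a mutant mean of 13.06, and transthyretin (Ttr) had a difference of 0.33. Of the 11, 1 had a negative difference, against 45.9% of all genes, and their median was 0.33. In 8 of the 11 the groups were apart, all higher in mutants, against 14.1% of all genes. Erythroid precursors also divide in the young liver: 13 of 16 markers were matched, 7 lay above background in each group, and 8 of the 13 had a negative difference. Hemgn, near background in both groups, was at 0 on control 1 and on all mutant arrays. Alas2, the heme synthesis enzyme of erythroid cells, gave 7.71, 8.68 and 7.99 in controls and 2.77, 8.27 and 4.42 in mutants, and overlapped through mutant 2 (adjusted p = 0.352, limma). The erythroid factor Klf1 had a difference of 0.09 and the transferrin receptor Tfrc 0.39. The erythropoietin receptor Epor had 0.93 with its groups apart (limma adjusted p = 0.365). Slc4a1 had -0.73 and Trim10 0.11. Ermap, near background in mutants, had -1.14, and Tspo2, near background in controls, 1.58. Near background in both groups, Epb42 had -1.44, Hba-a1 -1.05, Rhag -0.09 and Rhd -0.03. Apart from Epor, all of these overlapped. The summed signal of the 13 was 8.98 to 10.08 in controls and 8.67 to 9.71 in mutants on the log2 scale. The matching ranges for controls and mutants were 7.98 to 8.85 and 7.57 to 9.20 for lymphoid and granulocyte markers (14 of 15 matched). Of these 14, 13 lay above background in controls and 6 in mutants. A negative difference was found for 10 of them, against 45.9% of all genes, and their median was -0.72. Kupffer cell markers (11 of 11) gave 10.85 to 11.31 and 10.34 to 10.96, with 9 of the 11 negative and a median of -0.30. Endothelial markers (10 of 10) gave 10.01 to 10.60 and 9.17 to 10.97, with 7 of the 10 negative and a median of -0.28. Stellate markers (11 of 11) gave 11.58 to 11.68 and 9.90 to 11.86, but 9 of the 11 had a negative difference, with a median of -0.87. The 3 collagen genes of that list had their groups apart. Col3a1 gave 9.77, 9.76 and 9.69 against 3.56, 8.61 and 6.38, a difference of -3.56 (limma adjusted p = 0.296). Col1a2 had a difference of -1.93, and Col1a1, near background in mutants, a mean at least 5.75-fold lower. Cholangiocyte markers (6 of 8) gave 5.25 to 5.44 and 5.59 to 6.20, with 2 of the 6 above background in controls and 4 in mutants. Of these 6, 0 had a negative difference. Of these lists, the ranges of the 2 groups were apart only for hepatocyte markers (15.81 to 15.99 and 16.13 to 16.41) and cholangiocyte markers, both higher in mutants. The part of RNA quality and of these cell types in the results was not tested.

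**Figure D2:**
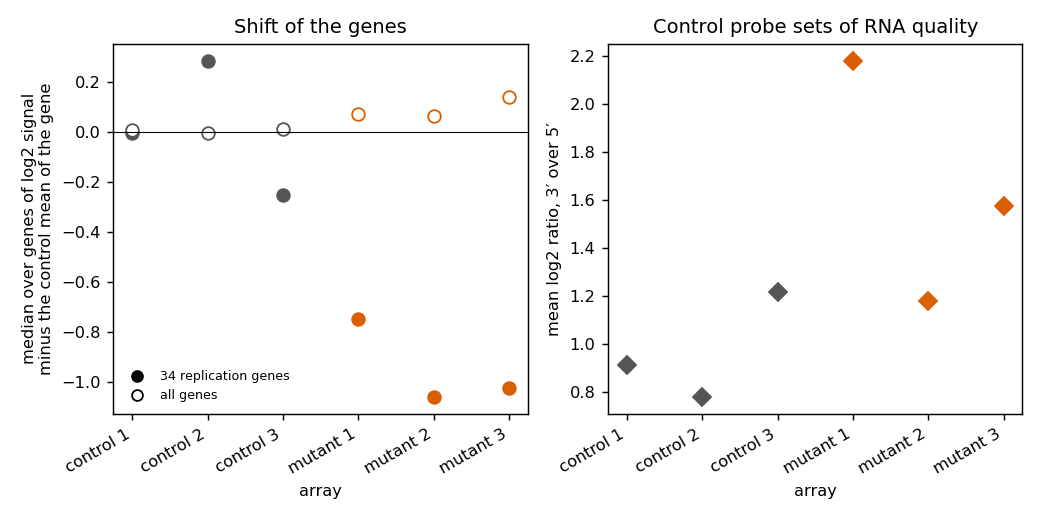
Left, median over genes of the log2 signal minus the control mean of the gene on each array (x axis), for 34 replication genes (filled) and all genes (open); right, mean log2 ratio of 3′ to 5′ control probe sets on the same arrays. Controls are grey and mutants orange. The replication genes lie between -0.75 and -1.06 on the mutant arrays while all genes stay between 0.07 and 0.14, and the ratio is highest on mutant 1, at 2.18.

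Promoters of the members are shown next because E2F binding is the best known shared feature of this gene class. RefSeq windows from 250 bases before to 50 bases after the transcription start (GRCm38.p6) were found for 30 of the 36 genes. The letters TTTCCCGC, TTTGGCGC, TTTGCCGC and TTTCGCGC, forms of the E2F site, were searched on both strands. They occurred for 12 of the 30 genes (40%), for 20 of 58 other replication genes (34.5%) and for 2.61% of 27025 genes with a window. The CCAAT box, CCAAT on either strand, occurred for 18 of the 30 (60%) against 41.1% of all genes, and the cell cycle element TTTGAA for 5 (16.7%) against 20.2%. The CArG box, the site that SRF binds, had a match for 1 of the 30 (3.33%), Tyms, against 1.81% of all genes. Of the 11 genes with a window and groups apart, 4 had E2F letters, as had 7 of the 17 whose groups overlapped. The windows below run from 200 bases before the start to 20 after it, and capitals mark E2F letters in the first 4 and CCAAT letters in the last 2. Mcm5, Mcm6 and Pola1 are shown as genes with E2F letters and groups apart, Mcm7 as one with E2F letters and overlapping groups, and Mcm10 and Rrm2 as genes with large differences and none of these E2F letters.
Mcm5, chr8:75109309-75109528, + strand: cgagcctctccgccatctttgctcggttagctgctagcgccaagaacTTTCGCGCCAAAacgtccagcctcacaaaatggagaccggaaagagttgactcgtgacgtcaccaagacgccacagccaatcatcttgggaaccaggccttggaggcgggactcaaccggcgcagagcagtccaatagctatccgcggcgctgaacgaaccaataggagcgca
Mcm6, chr1:128359686-128359905, - strand: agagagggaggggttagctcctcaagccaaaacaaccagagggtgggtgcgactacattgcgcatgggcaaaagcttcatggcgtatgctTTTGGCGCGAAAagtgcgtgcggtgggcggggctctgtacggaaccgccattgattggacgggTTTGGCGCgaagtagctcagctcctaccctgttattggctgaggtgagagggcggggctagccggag
Pola1, chrX:93632136-93632355, - strand: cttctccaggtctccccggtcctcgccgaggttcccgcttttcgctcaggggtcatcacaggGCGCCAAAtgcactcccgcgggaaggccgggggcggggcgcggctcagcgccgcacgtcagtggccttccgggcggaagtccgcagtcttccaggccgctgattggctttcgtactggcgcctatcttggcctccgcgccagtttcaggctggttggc
Mcm7, chr5:138171864-138172083, - strand: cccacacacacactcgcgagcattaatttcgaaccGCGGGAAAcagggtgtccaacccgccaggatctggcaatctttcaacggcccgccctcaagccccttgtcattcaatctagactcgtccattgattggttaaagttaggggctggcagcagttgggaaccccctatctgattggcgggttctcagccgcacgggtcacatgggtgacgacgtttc
Mcm10, chr2:5012772-5012991, - strand: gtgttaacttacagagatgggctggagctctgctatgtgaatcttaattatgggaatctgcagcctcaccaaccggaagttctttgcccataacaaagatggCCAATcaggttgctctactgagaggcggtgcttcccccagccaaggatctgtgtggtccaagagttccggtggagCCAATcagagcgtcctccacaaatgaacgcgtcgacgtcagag
Rrm2, chr12:24708054-24708273, + strand: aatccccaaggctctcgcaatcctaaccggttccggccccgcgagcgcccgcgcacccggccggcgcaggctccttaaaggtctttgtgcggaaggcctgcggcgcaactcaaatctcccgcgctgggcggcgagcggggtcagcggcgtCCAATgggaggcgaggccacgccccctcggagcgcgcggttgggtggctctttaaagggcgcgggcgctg
In Mcm5 the capitals hold 2 matches that share 4 bases, beginning 153 and 149 bases before the start. In Mcm6, likewise, matches begin at 110 and 106 bases and another at 47 bases before it. A match is a description of the letters, not a binding site in these livers.

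The helicase subunits that are loaded at origins were mostly low in the mutants, with Mcm7 as the exception. Mcm5 (1415945_at), a subunit of the ring, gave log2 signals of 5.70, 6.28 and 5.76 in controls 1 to 3, and the mutants, in the same order, gave 3.79, 2.67 and 3.57. Values of the other genes follow this order. All mutants lay well below all controls, with a difference of -2.57 (SE 0.38, limma adjusted p = 0.0757), a 5.95-fold lower mean. Its brighter, shared probe set (1436808_x_at, a type that can also detect related transcripts) gave 6.65, 7.51 and 6.70 against 5.02, 4.45 and 1.62, a difference of -3.26 (adjusted p = 0.248). Mutant 3 stood far below the other mutants there, at 1.62. For Mcm6 (1416251_at) the values were 7.28, 7.39 and 7.17 in controls and 6.002, 5.94 and 4.44 in mutants, again apart. The difference was -1.82 (SE 0.42, adjusted p = 0.222), and that of its shared probe set -1.79. Mcm4 (1416214_at) gave 6.02, 6.30 and 5.64 in controls against 4.83, 4.97 and 4.51 in mutants, so the groups did not overlap (difference -1.21, adjusted p = 0.24). Its shared probe set (1436708_x_at) gave 5.45, 5.62 and 5.09 against 5.75, 4.76 and 3.45, and overlapped. There mutant 1 lay above every control (difference -0.73, limma adjusted p = 0.52).

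Mcm2 and Mcm3 also depended on the probe set. The brighter Mcm2 probe set (1434079_s_at, shared) gave 6.41, 6.29 and 5.32 in controls and 5.71, 4.87 and 3.98 in mutants, and mutant 1 lay above control 3. Its dimmer partner (1448777_at), with 4.83, 5.55 and 5.12 against 3.92, 4.29 and 3.35, kept the groups apart (difference -1.32, adjusted p = 0.285). Mcm3 had 5 kept probe sets with differences between -3.57 and -0.20, all negative, of which 1 had its groups apart. That one (1426653_at) was near background in mutants, and its mean was at least 3.02-fold lower. Its brightest (1420028_s_at, shared) gave 5.46, 5.93 and 4.90 in controls and 4.93, 4.30 and 3.90 in mutants, where mutant 1 just exceeded control 3.

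Mcm7, the remaining subunit of the same ring, differed little on any of its 4 kept probe sets. The brightest (1438320_s_at, shared) gave 7.59, 8.37 and 7.90 in controls and 8.76, 7.15 and 7.34 in mutants. Mutant 1 was the highest array and mutants 2 and 3 the lowest, so the mutants surrounded the controls. The difference was -0.21 with a 95% interval from -1.23 to 0.81, and over the 4 probe sets differences ran from -0.34 to -0.15. An interval of this width does not show that Mcm7 was level, and Mcm7 against the other subunits was not tested. The intron of Mcm7 is the host of a microRNA cluster, but these probe sets were read only as the gene they are annotated to.

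Of the loading factors, Cdt1 (1424143_a_at) gave 6.52, 6.88 and 6.39 in controls and 6.95, 5.55 and 5.13 in mutants, with mutant 1 above every control and the other mutants below (difference -0.72, adjusted p = 0.464). Gmnn, which encodes the CDT1 inhibitor geminin, gave 7.48, 7.08 and 6.89 against 6.52, 7.24 and 7.17 (1417506_at). Its groups overlapped, although mutant 1 lay below every control, with a difference of -0.17 and a 95% interval from -0.85 to 0.50. Cdc6, the other loading factor, had a single probe set (1417019_a_at) at or below 3.41 on every array. That probe set was near background in both groups, so no difference is read from it.

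**Figure D3:**
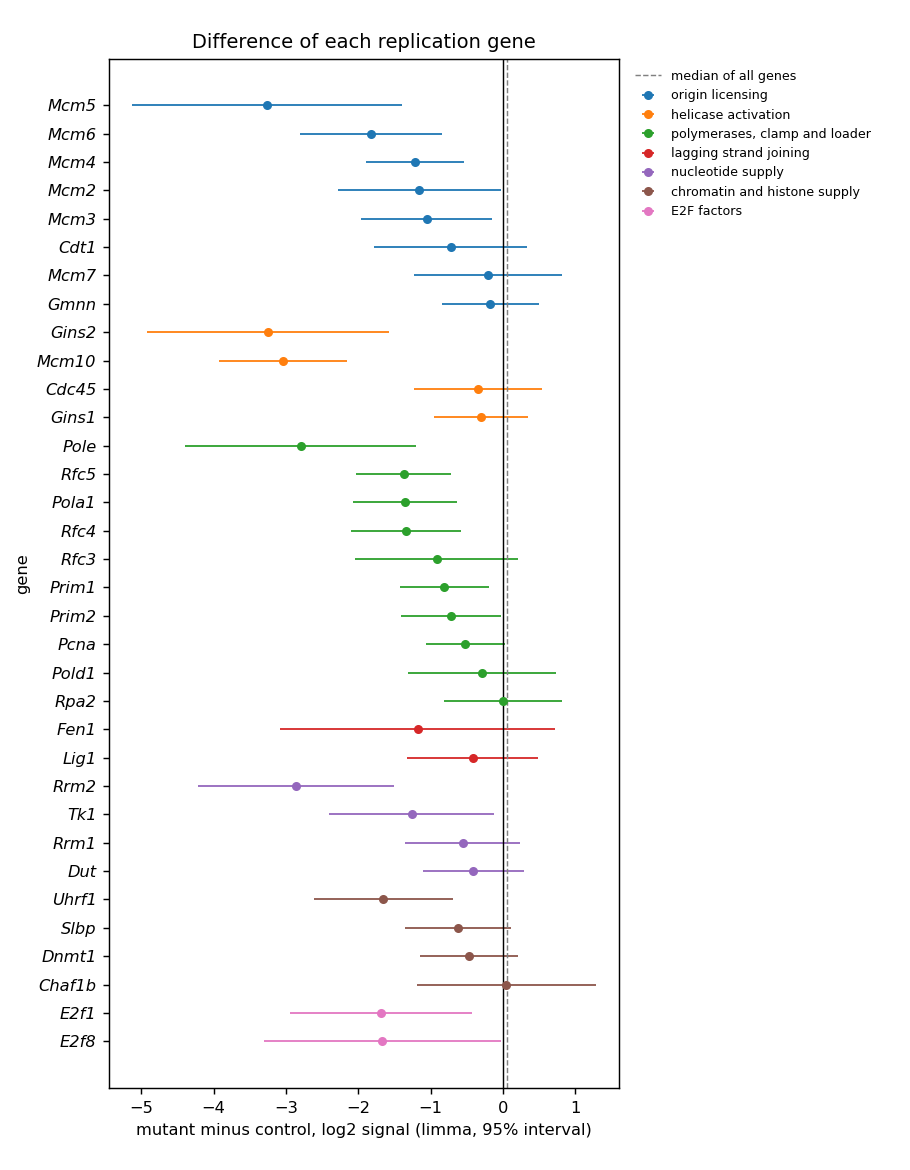
Mutant minus control difference in log2 signal (x axis) for each of 34 replication genes (rows), with its 95% interval from limma, coloured by role. The solid line is 0 and the dashed line the median of all genes, 0.06. Points run from -3.26 for Mcm5 to 0.05 for Chaf1b. The points of Gins2, Pole, Uhrf1, E2f1 and E2f8 use a mutant mean near background.

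Among the factors that switch the helicase on, Mcm10 and Gins2 had large differences while Cdc45 and Gins1 did not. Mcm10, a scaffold that helps start unwinding, gave 9.24, 8.78 and 8.003 in controls and 5.82, 6.01 and 5.08 in mutants (1433408_a_at). The highest mutant, at 6.01, lay well below the lowest control, at 8.003, and the difference was -3.04 (SE 0.39, adjusted p = 0.0598), an 8.22-fold lower mean. This was the smallest adjusted p of any member, and it fell under the threshold in some settings: 0.0417 on the deposited scaling, 0.0467 with arrays centred on their median and 0.023 after log2(signal + 32). Over all settings run it lay between 0.0199 and 0.398, the highest of these with the 3′ over 5′ ratio as covariate, where the difference was -2.76. Its other kept probe set (1433407_at) was dim, with 4.23, 2.43 and 3.01 against 2.68, 2.46 and 3.04, near background in mutants, and overlapped (difference -0.50, adjusted p = 0.682). The large difference thus rests on 1 probe set.

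Gins2, a subunit of the GINS complex, gave 4.55, 5.30 and 4.44 in controls and 1.64, 2.87 and 0.06 in mutants (1428713_s_at, shared). The groups were apart, and the mutant mean lay below the background estimate of 3.04 for mutants. Background was taken as the 95th percentile of 83 probe sets of sensory receptors assumed silent in liver. The mean of Gins2 was at least 3.30-fold lower, counted against that background (adjusted p = 0.2). Gins1, a partner in the same complex, gave 5.70, 5.72 and 5.70 against 5.84, 5.28 and 5.10 (1452598_at). Mutant 1 lay just above the tight controls and the other mutants below, with a difference of -0.30 and a 95% interval from -0.95 to 0.35. The 2 kept probe sets of Cdc45, a part of the active helicase, differed in sign, at -0.35 (1416575_at) and 0.57 (1457838_at), with adjusted p of 0.666 and 0.577.

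At the fork, 7 of the 10 genes for polymerases, primase, clamp and clamp loader had their groups apart, all lower in mutants, where 10.8% of all genes were lower and apart. Pole, the catalytic subunit of the leading strand polymerase, gave 4.58, 4.15 and 4.42 in controls and 1.76, 2.83 and 0.19 in mutants (1448650_a_at). Every mutant value lay below the background estimate, so the mean was at least 2.53-fold lower (adjusted p = 0.249). Pola1, the catalytic subunit of the polymerase that extends primers, gave 4.87, 5.07 and 5.19 against 3.44, 3.61 and 4.01, apart and with narrow groups (1419397_at; difference -1.35, SE 0.31, adjusted p = 0.214).

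The primase subunits that work with POLA1 had smaller differences. Prim1 (1418369_at) gave 6.50, 6.89 and 6.24 in controls and 5.68, 5.63 and 5.89 in mutants, a difference of -0.81 (adjusted p = 0.315). Prim2 (1418036_at) gave 4.62, 4.45 and 4.54 against 3.69, 3.85 and 3.92, a difference of -0.72 (adjusted p = 0.357). For both genes these groups were apart, and the other kept probe set overlapped. Pold1, of the lagging strand polymerase, was split by its probe sets, with -0.29 and overlap on the brighter (1448187_at) and no overlap on a shared one (1456055_x_at), near background in mutants and at least 2.25-fold lower.

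Pcna had a small difference with little spread. The sliding clamp gave 9.38, 9.70 and 9.07 in controls and 8.97, 8.91 and 8.70 in mutants (1417947_at). All mutants lay below all controls, by -0.52 on average (95% interval from -1.07 to 0.03, adjusted p = 0.373), a 1.43-fold lower mean. Differences were larger in the loader that places the clamp. Rfc5 (1452917_at) gave 6.16, 6.50 and 6.23 against 4.55, 4.95 and 5.27, a difference of -1.37 (SE 0.29, adjusted p = 0.173). Rfc4 (1424321_at) gave 5.99, 6.14 and 5.43 against 4.87, 4.11 and 4.57, a difference of -1.34 (adjusted p = 0.248), and its shared probe set (1438161_s_at) was apart too, near background in mutants and at least 4.61-fold lower. Rfc3 (1432538_a_at) gave 5.65, 5.58 and 5.001 against 5.56, 4.22 and 3.70, and overlapped through mutant 1 (adjusted p = 0.408). Rpa2, which coats single-stranded DNA, gave 4.64, 5.21 and 4.92 against 5.48, 4.89 and 4.42 (1416433_at), with a 95% interval from -0.81 to 0.82. Its other probe set (1454011_a_at) had -0.88 and overlapped as well.

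The enzymes that finish the lagging strand overlapped between the groups. Fen1, the flap nuclease, gave 6.70, 6.32 and 5.73 in controls and 6.70, 3.02 and 5.49 in mutants on its brighter probe set (1436454_x_at, shared). Mutant 2 alone was far below, and the difference of -1.18 had an SE of 0.82. Its other probe set (1421731_a_at), with 5.26, 5.23 and 4.33 against 4.65, 4.22 and 3.93, had no such outlying array (difference -0.68). Lig1, the ligase that seals the nicks, gave 4.81, 5.71 and 5.18 against 5.39, 4.83 and 4.21 (1416641_at; difference -0.42).

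Nucleotide supply was led by Rrm2, the regulatory subunit of ribonucleotide reductase whose level follows S phase. Its brightest probe set (1434437_x_at, shared) gave 6.57, 7.15 and 5.82 in controls and 2.36, 4.19 and 4.40 in mutants. The others gave 5.63, 6.23 and 4.57 against 3.03, 3.07 and 3.36 (1416120_at), and 5.93, 6.44 and 4.93 against 3.71, 4.09 and 3.23 (1448226_at). Controls and mutants were apart on all 3 probe sets. The differences were -2.86, -2.32 and -2.09 (adjusted p = 0.167, 0.15 and 0.182). With the 3′ over 5′ ratio as covariate the difference of the brightest was -1.43.

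Rrm1, the partner subunit that is made through the whole cycle, gave 6.02, 6.41 and 5.54 in controls and 5.68, 4.91 and 5.70 in mutants (1415878_at), and overlapped (difference -0.56). A second probe set (1448127_at), with 6.29, 6.78 and 5.52 against 4.43, 5.32 and 4.98, was apart (difference -1.29, adjusted p = 0.301). Tk1, the salvage kinase for thymidine, gave 7.54, 7.17 and 7.17 against 5.18, 7.24 and 5.69 (1416258_at). Mutant 2 stood at the control level and the other mutants far below it, so the difference of -1.26 had an SE of 0.50 (adjusted p = 0.347). Without mutant 2, the only mutant array at the control level, the difference was -1.86 (limma adjusted p = 0.0319). Leaving out that array favours a small p, so this value is no separate evidence. Dut, which removes dUTP, gave 5.41, 5.51 and 4.83 against 4.62, 4.96 and 4.95 on its brighter probe set (1419270_a_at; difference -0.41), and 3.96, 3.90 and 3.96 against 1.56, 3.12 and 0.87 on the dimmer (1419269_at). The dimmer set was apart, and its mean was at least 1.86-fold lower with the mutant mean below background. Tyms, thymidylate synthase, had 4 probe sets that were all near background in both groups and did not pass the filter.

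**Figure D4:**
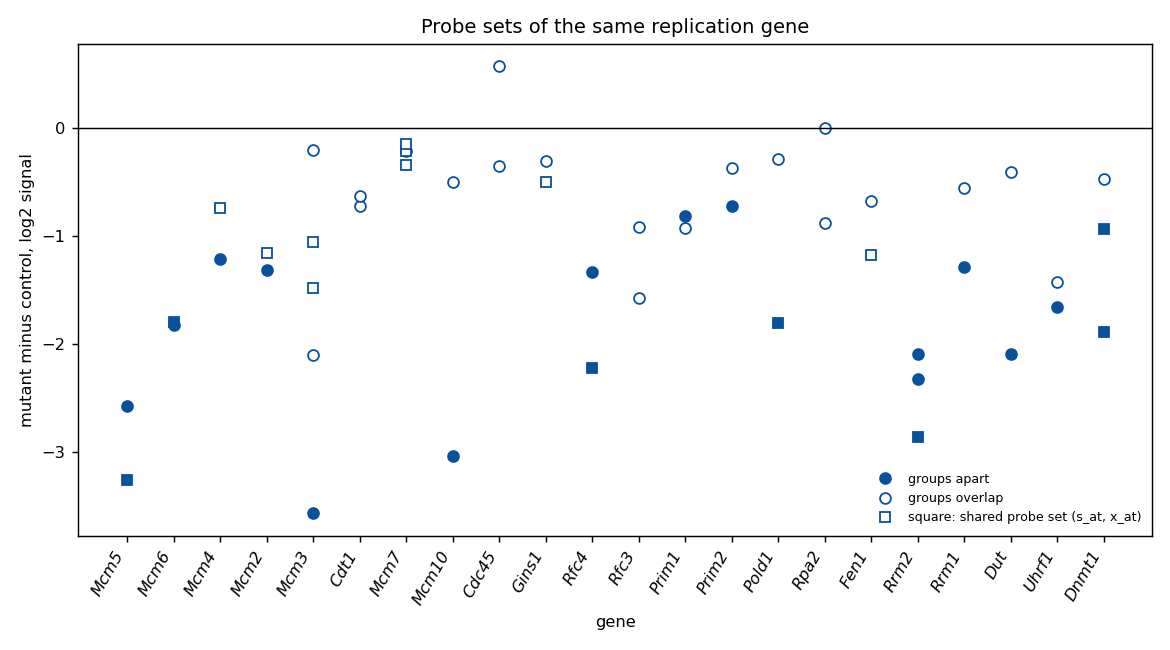
Mutant minus control difference in log2 signal (y axis) of each kept probe set, for the 22 replication genes (x axis) with more than 1. Filled symbols have all mutant arrays beyond all controls, and squares are shared probe sets. All probe sets are below 0 for 20 of the 22 genes; Cdc45 and Rpa2 have both signs, and the points of Mcm7 lie close to 0.

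In chromatin assembly and DNA methylation, Uhrf1 had its groups apart on the probe set that represents it. UHRF1 brings the methyltransferase DNMT1 to newly copied DNA. Uhrf1 gave 4.12, 4.65 and 4.01 in controls and 3.06, 2.44 and 2.32 in mutants (1415810_at), apart and at least 2.32-fold lower against background (adjusted p = 0.249), although mutant 1 lay just above that level. Its other kept probe set (1415811_at), near background in mutants, gave 3.26, 3.44 and 2.22 against 2.96, 0.00 and 1.70. That probe set overlapped (difference -1.42, limma adjusted p = 0.454). Dnmt1 had 3 kept probe sets with differences of -0.47, -0.93 and -1.89. The brightest (1422946_a_at) overlapped, with 5.56, 6.10 and 5.52 against 5.08, 5.58 and 5.12, and the other two, both shared, were apart, the last of them near background in mutants. Slbp, which binds the stem loop of histone messengers, gave 7.46, 7.47 and 7.02 against 6.18, 7.24 and 6.69 (1460168_at; difference -0.62, adjusted p = 0.4). Chaf1b, of the histone chaperone CAF1, gave 4.03, 4.57 and 4.59 against 5.67, 3.63 and 4.03 (1423877_at), with mutant 1 above and mutant 2 below every control. Its difference was 0.05, with a 95% interval from -1.19 to 1.28.

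The 2 E2F factors were near background in mutants. E2f1, an activator of S phase genes, gave 4.08, 4.52 and 3.75 in controls and 1.43, 2.74 and 3.12 in mutants (1431875_a_at). The groups were apart, and the mean was at least 2.10-fold lower against background (adjusted p = 0.315), although mutant 3 lay just above that level. E2f8, a repressor of the same targets, gave 3.03, 4.76 and 4.16 against 3.42, 2.37 and 1.14 (1436186_at) and overlapped through mutant 1. Its mean was at least 1.91-fold lower (adjusted p = 0.361), with mutant 1 above background.

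The counts depended on single arrays. Without mutant 2, 4 members passed the threshold, Gins2, Mcm10, Pole and Tk1, where 1.78% of all genes were called lower. For each of these 4 genes mutant 2 was the highest mutant array, at 2.87, 6.01, 2.83 and 7.24. Leaving it out thus removed the mutant value nearest the controls, and the 4 calls are no separate evidence. Gins2 and Pole also passed the filter through their controls. Without mutant 1, Mcm10 alone passed (0.508% of all genes lower), and 24 of 34 members had their groups apart, against 14.4% of all genes. Without control 2, 11 members were lower at an unadjusted p under 0.05, against 3.67% of all genes. Array scaling moved all genes as well: their median was -0.39 on the deposited scaling and -0.17 with arrays centred on their median. On the deposited scaling 23 members had groups apart, against 20.4% of all genes. The calls over all genes were then 3 higher and 18 lower, in place of 4 higher and 11 lower, and 1 member, Mcm10, was among them.

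Other genes of DNA replication, a list of 69 of which 65 were matched and 63 kept, were more mixed. None passed the threshold in limma in either direction (0.0837% of all genes lower and 0.0304% higher). At an unadjusted p under 0.05, 12 were lower and 3 higher, against 7.01% and 7.36% of all genes. Of the 63, 43 had a negative difference, against 45.9% of all genes. With groups apart, 14 were lower and 4 higher, against 10.8% and 14.1% of all genes. The median was -0.28, against 0.06 over all genes. The smallest adjusted p was that of Esco2, the cohesin acetyltransferase of S phase, which gave 4.04, 4.42 and 3.58 in controls and 1.06, 0.00 and 0.00 in mutants (1428304_at), at least 1.96-fold lower (adjusted p = 0.127). The nucleoside kinase Dck and the nucleotide kinase Dtymk followed, with differences of -1.54 and -1.11 (limma adjusted p = 0.165 and 0.193). Hells, a remodeler of the SNF2 family, was at least 3.43-fold lower by its mean (adjusted p = 0.24; mutant 1, at 3.59, was above background), and Pold2, a partner of POLD1, had -1.06 (adjusted p = 0.299). All of these had their groups apart. In the other direction Pole4, an accessory subunit of the leading strand polymerase, gave 6.45, 6.58 and 6.99 in controls and 8.20, 7.23 and 7.98 in mutants (1423372_at; difference 1.13, adjusted p = 0.286). Orc1, a subunit of the origin recognition complex, had 1.27 (adjusted p = 0.294) and a control mean of 2.93, close to the background estimate of 2.87.

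DNA lists without an S phase role had medians closer to that of all genes. The 22 kept genes of repair outside S phase had a median of -0.08, with 3 lower and 1 higher at an unadjusted p under 0.05 (7.01% and 7.36% of all genes) and 0 calls. Of these, 14 had a negative difference, 6 were lower with groups apart and 2 higher, against 10.8% and 14.1% of all genes. The smallest adjusted p there was 0.241, for Aptx, which resolves failed ligations, with a difference of -1.23. The 15 genes of mitochondrial DNA replication had a median of 0.07, with 0 lower and 0 higher at an unadjusted p under 0.05, and 1 apart in each direction. The members' median of -0.99 was thus farther from that of all genes than any of these lists, as a description and not as a test between lists. Members and lists were chosen with earlier results of these data known, and the part of that choice in the gap was not tested.

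**Figure D5:**
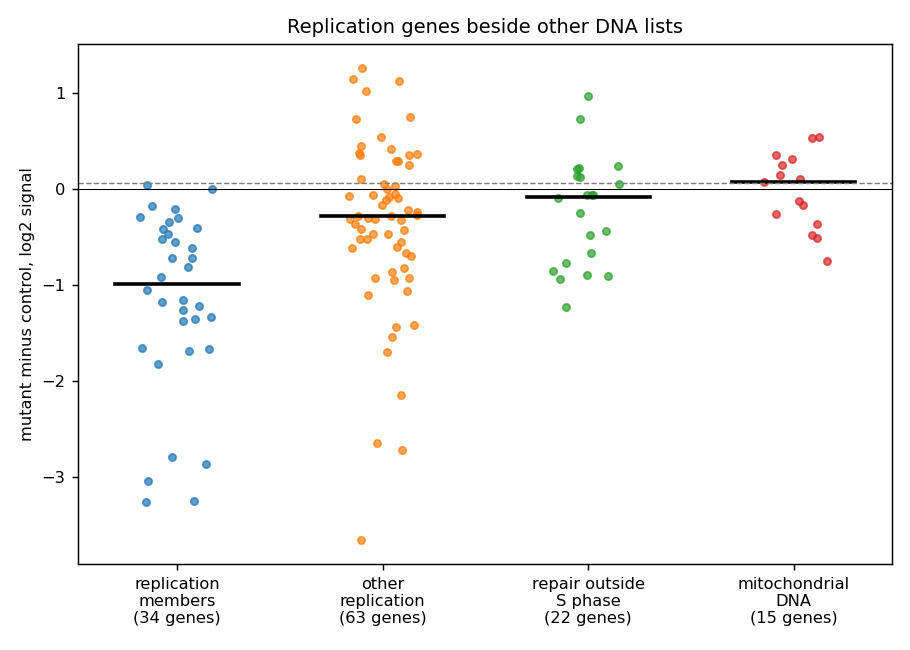
Mutant minus control difference in log2 signal (y axis) for each kept gene of 4 lists (x axis), with the median of each list as a bar and the median of all genes as a dashed line. The bars lie at -0.99, -0.28, -0.08 and 0.07.

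Srf itself did not pass the test. The brighter probe set (1418256_at) had a difference of -1.20 (adjusted p = 0.398, limma), and mutant 2, at 5.24, lay within the controls at 5.31, 5.14 and 5.11. Where its probes lie relative to the deleted part was not analysed here, and the signal is therefore no check of a genotype.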

How the data were processed

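Labelled RNA of each of the 6 livers was measured on 1 Affymetrix mouse array. The deposited table holds 1 linear intensity for each probe set and array, made with GCOS, per the submitters' processing notes; which algorithm and target it used is unknown here. Arrays were rescaled so that their trimmed means (2% off each end, 37.3 to 69.9 as deposited) were equal, values under 1 were set to 1, and log2 was taken. Control probe sets and the lower 40% of the others were left out. Groups were compared with limma 3.58.1 in R 4.3.3 (trended prior, two-sided, Benjamini-Hochberg over all 27022 probe sets). A gene is represented by its brightest kept probe set with 1 symbol, updated through Entrez identifiers: 34945 probe sets have 1 symbol, 932 several and 9160 are not listed. The fit was tested on simulated data. Members, lists and tests were chosen with earlier results of these data known. Named genes are all members, Alb, Ttr, Srf and markers near background that are counted. Of each other list, up to 8 genes with the smallest p are named. Dtl and the other erythroid and stellate markers were named after their values were seen. A group mean at or below the background estimate (2.87 in controls, 3.04 in mutants) gives a lower bound of the fold, which uses the mean and is not strict where an array lay above it. That the mice were separate animals comes from the design text; 3 arrays in each group limit the precision. Promoter sequences are from RefSeq. Protein sequences were not used here.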

Additional observations from a re-analysis of the deposited data

How the results depend on the processing

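The count of members past the threshold was 0, and was 1 (Mcm10) on the deposited scaling, with arrays centred on their median, after log2(signal + 32) and with the replicate block. Leaving out 1 array gave 0 to 4 members past the threshold, 15 to 24 with groups apart, 11 to 22 lower at an unadjusted p under 0.05, and medians from -1.20 to -0.79. Of all genes, 12.8% to 19.8% were then lower with groups apart and 3.32% to 12.3% lower at that p, with medians from 0.04 to 0.09. With 1 array fewer, groups are apart more easily for any gene. On the deposited scaling 23 members had groups apart and the median was -1.44; after log2(signal + 32), which shrinks the differences of dim genes, the median was -0.49. The other settings, among them quantile normalization, no filter or a stricter one, no variance trend, 1 mean over the probe sets of a gene and unshared probe sets only, kept the count past the threshold at 0 and the other counts within 1.5 times; groups apart are read from the array values, so a change of model alone cannot alter them. Over single genes, 543 of 572 values kept their sign and side of the threshold, 9 passed it and 20 turned sign. Those 20 belong to 7 genes, with reported differences from -0.62 to 0.05. Rpa2 turned to -0.45 on the deposited scaling, -0.23 with arrays centred, -0.00060 after quantile normalization, -0.34 with the 3′ over 5′ covariate, -0.44 as a mean over probe sets, -0.14 without control 1 and -0.27 without mutant 1. Chaf1b turned to -0.41, -0.19, -1.18 (covariate), -0.14 and -0.57 in the same settings other than quantile normalization and the mean. Gmnn turned to 0.33 with the covariate and 0.058 without mutant 1, Slbp to 0.094 with the covariate, Cdc45 to 0.13 with it and 0.11 as a mean. Mcm7 turned to 0.0015 without control 2 and 0.093 without mutant 2, and Pold1 to 0.0076 without mutant 3. Leaving out 1 array gave ranges of -0.27 to 0.26 for Rpa2, -0.57 to 0.45 for Chaf1b, -0.30 to 0.058 for Gmnn, -0.71 to 0.093 for Mcm7 and -0.63 to 0.0076 for Pold1. The cause was not tested. No pairing of the mice by replicate number was visible: deviations of same-numbered arrays correlated at -0.04, 0.02 and 0.04. Those of differently numbered arrays correlated between -0.10 and 0.08. With 3 arrays in each group this cannot exclude a pairing. With the block, 16 members were lower at an unadjusted p under 0.05, against 6.53% of all genes, and 1 passed the threshold. Without detection calls, signal over background limits what is read from Cdc6, Tyms and the E2F factors.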
